A study of Mus musculus with 391 samples.

Results

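Heat shock proteins and chaperones were followed through 9 genes, Hspa1a, Hspa1b, Hspa5, Hspa8, Hsp90aa1, Hsp90ab1, Hspb1, Dnajb1 and Hsph1, taken by name from the count table. All 9 were found among its 56941 genes. The cells came from the brains of adult mice; vessel fragments were prepared by mechanical and enzymatic dissociation, digested to single cells, and sorted into plates of 384 wells for Smart-seq2, a full-length RNA sequencing method. By label, 280 cells are microglia, the resident macrophages of the brain, and form the microglia class, and 111 are endothelial cells, the lining of blood vessels. No treatment, genotype or strain is given. The same dissociation protocol is described for both classes, but the labels do not say which cells were prepared together. The labels do not say which animal a cell came from. Each class was therefore treated as a single sample, and no test between the classes was possible.

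The core markers of each labelled type separated the classes, while those of parenchymal microglia did not. The 14 core microglia markers summed to between 4434 and 87163 CPM (a gene's reads scaled to a common total of gene reads) in single microglia-class cells and to between 0 and 2621 CPM in endothelial cells. The 13 core endothelial markers summed to between 5.09 and 4821 CPM in microglia-class cells and to between 9991 and 54236 CPM in endothelial cells. The 5 markers of parenchymal microglia had a median sum of 376 CPM in microglia-class cells and 617 CPM in endothelial cells. Their highest sums were 17085 and 4298 CPM. For the 9 markers of border-associated macrophages the medians were 7610 CPM in microglia-class and 313 CPM in endothelial cells. The deposited table held 47508014 gene reads in the microglia class, with 39876 to 504875 per cell, and 21361227 in the endothelial class, with 83954 to 602175 per cell. Plates A and B held both classes, 133 microglia-class with 7 endothelial cells and 147 with 10, and plates C and D held 50 and 44 endothelial cells alone. Class and plate therefore cannot be told apart for most endothelial cells. On plates A and B the classes sat in separate rows of wells.

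Chaperones bind unfolded stretches of other proteins and keep them from clumping while they fold. HSP70 proteins do this in cycles of ATP hydrolysis, which J proteins start and nucleotide exchange factors end, and pass many clients on to HSP90. Small heat shock proteins hold unfolding proteins without using ATP. Heat shock factor 1 switches on the inducible genes of the cytosol by binding heat shock elements, repeats of the unit nGAAn in alternating orientation, while unfolded proteins in the endoplasmic reticulum act through a separate pathway and the ER stress element. The inducible genes also rise during tissue dissociation in many studies, so their levels in dissociated cells describe the cells as sequenced.

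Promoters were searched for the letters of these elements. RefSeq promoters (build GRCm38.p6, from 250 bases before to 50 after a start site) were found for Hspa1a, Hspa1b, Hsph1, Dnajb1, Hspb1 and Hspa5. The last 150 bases before the start are shown for a near-identical pair of genes, for Hspb1, which varied with that pair across endothelial cells, and for Hspa5, whose values with the pair were near 0 or below there. These genes were picked by those correlations, and the part of the elements in them was not tested. Capitals mark heat shock elements of 2 units (GAANNTTC or TTCNNGAA) in the first 3 sequences and the ER stress element (CCAAT and CCACG with 9 bases between) in the last.
Hspa1a (chr17:34972157-34972306, minus strand): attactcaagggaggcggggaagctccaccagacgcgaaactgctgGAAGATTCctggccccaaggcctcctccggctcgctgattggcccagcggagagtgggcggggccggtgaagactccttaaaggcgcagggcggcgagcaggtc
Hspa1b (chr17:34959239-34959388, minus strand): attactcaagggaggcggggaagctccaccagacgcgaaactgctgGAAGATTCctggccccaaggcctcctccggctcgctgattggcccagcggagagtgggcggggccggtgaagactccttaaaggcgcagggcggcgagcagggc
Hspb1 (chr5:135887769-135887918, plus strand): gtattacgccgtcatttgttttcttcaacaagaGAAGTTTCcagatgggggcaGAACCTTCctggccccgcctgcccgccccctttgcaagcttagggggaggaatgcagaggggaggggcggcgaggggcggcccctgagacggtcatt
Hspa5 (chr2:34771940-34772089, plus strand): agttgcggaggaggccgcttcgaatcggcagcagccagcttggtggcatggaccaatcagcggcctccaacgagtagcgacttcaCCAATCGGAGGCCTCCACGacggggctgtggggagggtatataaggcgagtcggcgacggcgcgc

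Hspa1a and Hspa1b carried their element at the same place, 104 to 97 bases before the start. Their windows of 300 bases differed at 4 positions, C44T, T47C, T249G and C276T, counted from the first base of the window with the base of Hspa1a given first. Hspb1 held a pair of elements, 117 to 110 and 97 to 90 bases before the start. Of all 32851 promoters searched on both strands, 15.1% held an element of 2 units, so a match of this kind is common. An element of 3 units, GAA and TTC alternating with NN between, was in 0.603% of promoters and, among the 6 genes with a promoter, in Hsph1, as TTCTGGAAAGTTC, 37 to 49 bases after the first of its 2 listed starts. Any element of 3 units also counts as one of 2 units. The ER stress element of Hspa5, 65 to 47 bases before its start, was in 0.119% of promoters. Dnajb1 held none of these elements in its windows. Across endothelial cells the rank correlations with Hspa1a and Hspa1b were 0.57 and 0.37 for Hspb1 and -0.10 and -0.02 for Hspa5. For Hsph1 they were 0.14 and 0.06, and for Dnajb1 0.21 and 0.24.

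Together the 9 genes took 6128 CPM of the pooled microglia-class reads and 4349 CPM of the endothelial reads. Here and below, pooled CPM are the reads of all cells of a class over all its gene reads, and 95% intervals cover counting error only. At 4-fold or more, on log2 of pooled CPM plus a pseudocount of 1, 0 of the 9 were higher in the microglia class, while Hspb1, 1 of the 9, was higher in the endothelial class. Over all 14989 genes at 1 CPM or more, 19.9% passed that size towards the microglia class and 11.7% towards the endothelial class. At 2-fold, Hspa5, Hsp90aa1 and Hspa8 were also higher in the microglia class, against 37.2% of all genes, while 22.1% of all genes were higher in endothelial cells. These shares of the members are not above the background. The median log2 ratio over all genes was 0.36.

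**Figure D1:**
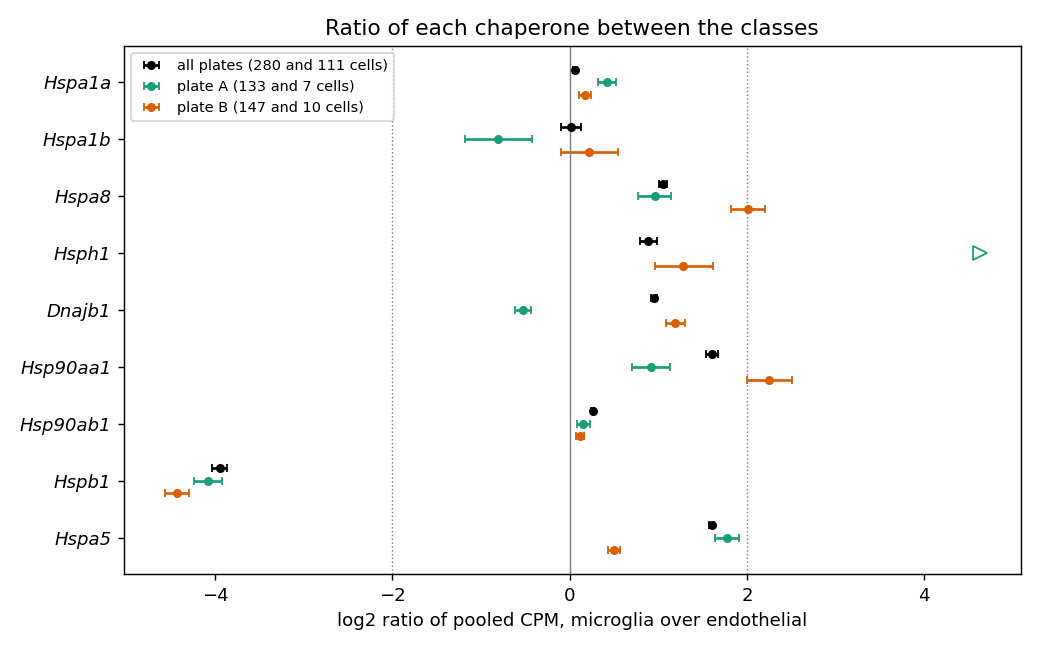
Log2 ratio of pooled CPM, microglia over endothelial, for the 9 genes over all plates and within plates A and B; bars are exact 95% intervals for counting error, dotted lines mark 4-fold, and the open arrow is a lower bound against 0 endothelial reads. Hspb1 lies far to the endothelial side in all 3 comparisons, and Dnajb1 changes side between the plates.

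Per length, the order of the genes differed between the classes. In the microglia class Hsp90ab1 led with 605 CPM per kb of exon, followed by Hspa1a with 374, Hspa5 with 347 and Dnajb1 with 247 CPM per kb. Hspa8 at 107 and Hsp90aa1 at 82.4 CPM per kb came next, and Hspb1 at 28.3, Hspa1b at 15.9 and Hsph1 at 12.0 CPM per kb were lowest. In endothelial cells Hsp90ab1 again led with 506 CPM per kb, but Hspb1 came second with 438, before Hspa1a with 359, Dnajb1 with 128 and Hspa5 with 114 CPM per kb. Hspa8 at 51.8, Hsp90aa1 at 27.1, Hspa1b at 15.7 and Hsph1 at 6.48 CPM per kb followed. Among 12792 genes ranked per length in the microglia class and 10975 in the endothelial class, Hspb1 stood at place 1958 in the microglia class and at place 71 in the endothelial class. Without replicates, no spread can be set against the steps between neighbours in these orders.

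Hspa1a, the stress-inducible HSP70, was abundant in both classes at nearly the same level. It had 1108 pooled CPM (1099 to 1118) in the microglia class and 1066 CPM (1052 to 1080) in endothelial cells, a ratio of 1.04 (1.02 to 1.06), whose direction turned with TMM or median-of-ratios scaling (log2 ratios -0.02 and -0.07). The cells of a class were far apart. In microglia-class cells it ran from 0 to a median of 1079 and a highest value of 6865 CPM, and in endothelial cells from 0 to a median of 1065 and a highest value of 4081 CPM. The share of cells at 1000 CPM or more was 51.8% in the microglia class and 51.4% in the endothelial class, and the share under 10 CPM was 10.7% in the microglia class and 15.3% in the endothelial class. The ranges of the classes overlapped throughout.

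Hspa1b, which encodes a nearly identical HSP70, had 44.6 pooled CPM in the microglia class and 44.1 CPM in endothelial cells, a ratio of 1.01 (0.936 to 1.09). Hspa1b took 3.87% (3.71 to 4.04) of the pair's reads in the microglia class and 3.98% (3.73 to 4.23) in endothelial cells. On plate A the shares were 3.41% (3.16 to 3.68) in the microglia class and 7.67% (5.98 to 9.65) in endothelial cells, from 66 Hspa1b reads. In the GENCODE M21 transcripts, 58.8% of the 50-base pieces of Hspa1a also occur in Hspa1b. How reads that match both genes were counted was not stated for these files, so the split within the pair is uncertain. The summed pair had 1153 CPM in the microglia class and 1110 CPM in endothelial cells.

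Hspa8, the constitutive HSP70 that folds newly made proteins and uncoats clathrin vesicles, was higher in the microglia class. It had 461 pooled CPM (455 to 467) there and 223 CPM (216 to 229) in endothelial cells, a ratio of 2.07 (2.01 to 2.14). Microglia-class cells ran from 0 to a median of 375 and a highest value of 2309 CPM, and endothelial cells from 0 to a median of 201 and a highest value of 1191 CPM. At least 1 read was found in 95.7% of microglia-class and 92.8% of endothelial cells. Of its 50-base pieces, 74.8% occur in other annotated genes; those with the most shared pieces are predicted genes, and each one of these with counts had under 2 CPM in both classes.

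Hsph1, an HSP110 that exchanges nucleotide on HSP70 and helps dissolve aggregates, was read in 27.1% of microglia-class and 33.3% of endothelial cells. After thinning each cell to 39000 reads, Hsph1 was read in 20.4% of microglia-class and 18.9% of endothelial cells. Its pooled level was 87.2 CPM (84.5 to 89.9) in the microglia class and 47.1 CPM (44.2 to 50.1) in endothelial cells, a ratio of 1.85 (1.73 to 1.98). The median cell of both classes had 0 CPM, and the highest cell had 1662 CPM in the microglia class and 1185 CPM in the endothelial class. The 28 highest microglia-class cells held 92.7% of the summed CPM of their class, and the 11 highest endothelial cells held 93.7%. Its pooled level thus rests on a small number of cells.

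Dnajb1, the J protein that hands stress-damaged clients to HSP70, varied widely between cells. In the microglia class 34.3% of cells had under 10 CPM, 19.3% had 10 to 100, 18.2% had 100 to 1000 and 28.2% had 1000 CPM or more. In the endothelial class 54.1% had under 10 CPM, 7.21% had 10 to 100, 23.4% had 100 to 1000 and 15.3% had 1000 CPM or more. The median cell had 36.7 CPM in the microglia class and 6.39 CPM in the endothelial class, far below the pooled 790 CPM (782 to 798) of the microglia class and 409 CPM (401 to 418) of the endothelial class. The pooled ratio was 1.93 (1.89 to 1.98). It did not hold on both plates. On plate A the pooled levels were 736 CPM in microglia-class cells and 1060 CPM in the 7 endothelial cells, a ratio of 0.694 (0.651 to 0.741), and on plate B they were 820 CPM in microglia-class and 359 CPM in endothelial cells, a ratio of 2.29 (2.13 to 2.46). The 7 endothelial cells of plate A had 0, 0, 15.6, 675, 1995, 2149 and 2703 CPM. The direction of Dnajb1 thus differed between the plates.

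**Figure D2:**
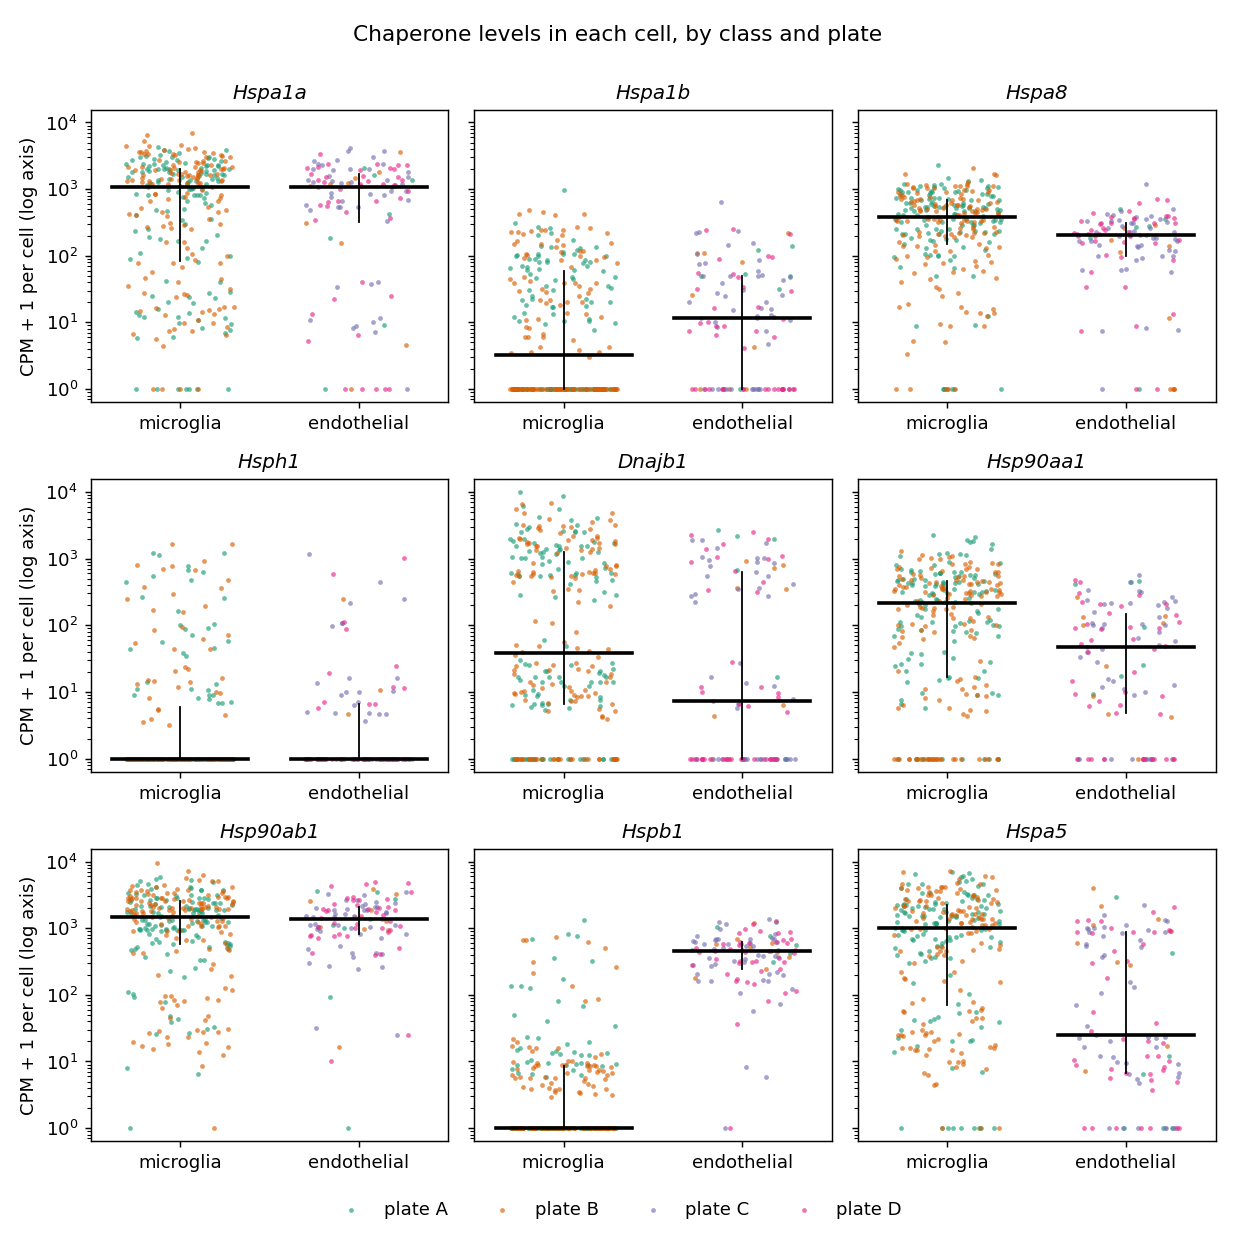
CPM plus 1 in each of 280 microglia-class and 111 endothelial cells on a log axis, coloured by plate; thick bars are medians and thin bars run between the quartiles. Dnajb1 and Hspa5 spread widely in both classes, while Hspb1 forms a narrow band in endothelial cells.

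Hsp90aa1, the stress-inducible cytosolic HSP90, showed a larger difference than its constitutive partner. It had 324 pooled CPM (319 to 329) in the microglia class and 106 CPM (102 to 111) in endothelial cells, a ratio of 3.04 (2.91 to 3.18). Microglia-class cells ran from 0 to a median of 212 and a highest value of 2274 CPM, and endothelial cells from 0 to a median of 46.8 and a highest value of 577 CPM. Of the microglia-class cells, 6.07% reached 1000 CPM. The ratio was 1.88 (1.63 to 2.20) on plate A and 4.76 (4.02 to 5.67) on plate B. Pieces shared with other annotated genes made up 58.5% of its transcript.

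Hsp90ab1, the constitutive HSP90, was the most abundant of the 9 per length in both classes. It had 1815 pooled CPM (1803 to 1827) in the microglia class and 1518 CPM (1501 to 1534) in endothelial cells, a ratio of 1.20 (1.18 to 1.21). It was read in 278 of 280 microglia-class cells and 110 of 111 endothelial cells. The median cell had 1454 CPM in the microglia class and 1379 CPM in the endothelial class, and the highest had 9379 CPM in the microglia class and 4975 CPM in the endothelial class. On plates A and B the ratio was 1.11 and 1.08.

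Hspb1, a small heat shock protein that binds unfolding proteins and actin filaments, was the only one of the 9 genes lower in the microglia class by 4-fold or more. It had 29.2 pooled CPM (27.7 to 30.8) in the microglia class and 451 CPM (442 to 461) in endothelial cells, 15.5-fold (14.6 to 16.4) higher in endothelial cells. It was 17.0-fold higher in endothelial cells on plate A and 21.6-fold on plate B. Microglia-class cells ran from 0 to a median of 0 and a highest value of 1347 CPM, and endothelial cells from 0 to a median of 452 and a highest value of 1373 CPM. The ranges overlapped, but 10 or more reads were found in 7.86% (4.99 to 11.7) of microglia-class cells and 94.6% (88.6 to 98.0) of endothelial cells. After thinning to 39000 reads per cell, which left out no cell, 17.5% of microglia-class and 97.3% of endothelial cells had a read.

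The 2 classes also differed in how evenly Hspb1 was spread. In endothelial cells its coefficient of variation over cells was 0.645, the lowest of the 9 genes, and 85.6% of cells lay between 100 and 1000 CPM. In the microglia class the coefficient was 4.01, and the 28 highest cells held 93.5% of the summed CPM. Across microglia-class cells its rank correlation with the summed endothelial core markers was 0.01. The median coefficient of variation over genes averaging 10 CPM or more per cell was 4.23 in the microglia class and 3.67 in the endothelial class. Hspb1 averaged 36.1 CPM per cell in the microglia class and 476 CPM in the endothelial class, and its evenness was not compared at equal level. Of its 50-base pieces, 51.6% occur in 2 other annotated genes.

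Hspa5, the HSP70 of the endoplasmic reticulum known as BiP, was higher in the microglia class. It had 1468 pooled CPM (1458 to 1479) there and 484 CPM (475 to 494) in endothelial cells, a ratio of 3.03 (2.97 to 3.10). Microglia-class cells ran from 0 to a median of 1002 and a highest value of 7239 CPM, and endothelial cells from 0 to a median of 23.8 and a highest value of 4065 CPM. At 1000 CPM or more were 50.0% of microglia-class cells and 16.2% of endothelial cells. Within plates the ratio was 3.42 (3.11 to 3.76) on plate A and 1.41 (1.35 to 1.48) on plate B. The 10 endothelial cells of plate B had 987 pooled CPM, against 401 to 470 CPM in those of the other plates. On plate A, 1 of the 7 endothelial cells held 87.0% of their summed CPM. None of its 50-base pieces occurs in another annotated gene.

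The remaining within-plate values follow the pooled ones in direction except for Hspa1b. Hspa8 had a ratio of 1.94 (1.71 to 2.22) on plate A and 4.03 (3.54 to 4.61) on plate B, and Hspa1a one of 1.34 on plate A and 1.13 on plate B. Hspa1b had 0.569 (0.442 to 0.745) on plate A, where its endothelial level rests on 66 reads, and 1.162 (0.936 to 1.46) on plate B. Hsph1 had 77.1 CPM in the microglia class and 0 reads in the 7 endothelial cells of plate A, at least 24.7-fold higher against a floor of 3 reads over those cells, with an exact 95% lower limit of 20.1-fold, and a ratio of 2.43 (1.95 to 3.06) on plate B. Within plates, 46.5% of all genes were 4-fold or more higher in the microglia class on plate A and 48.4% on plate B, with medians of 1.73 and 1.87 on the log2 scale. The other direction held 10.9% on plate A and 11.5% on plate B. Genes of known length at 1 CPM or more numbered 12271 in microglia-class and 7435 in endothelial cells on plate A. On plate B they numbered 12230 and 6333. A gene read in the microglia class but not in the few endothelial cells counts towards the microglia class here. These shares and medians are therefore no matched background for abundant genes. Of the 9 members, 1 on plate A (Hsph1) and 2 on plate B (Hspa8 and Hsp90aa1) passed 4-fold towards the microglia class.

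Single cells of both classes carried several chaperone messages at once. At 100 CPM or more, the median number of the 9 genes in a cell was 5 in the microglia class (range 0 to 9) and 5 in the endothelial class (range 1 to 8). The 9 genes summed to a median of 5649 CPM in microglia-class cells (range 91.7 to 23287) and 4246 CPM in endothelial cells (range 708 to 13111). In 4 microglia-class cells and 0 endothelial cells none of the genes reached 100 CPM, and 2 microglia-class cells and 0 endothelial cells had all 9 there.

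The other chaperone genes were looked at in 11 lists by role, joined to 129 genes of which 125 were measured. In the joined set, 11 genes (8.80%) passed 4-fold towards the microglia class and 6 (4.80%) towards endothelial cells, and the median log2 ratio was 0.21 against 0.36 over all genes. The median of all genes depended on the low filter, at 0.12 over genes at 10 CPM or more and 0.06 over all genes with a read. As that median is above 0, most genes at 1 CPM or more lay above 0. Their share was not computed, so the counts of list genes above or below 0 that follow have no background share. The shares past 4-fold are lower than the 19.9% and 11.7% of all genes at 1 CPM or more. Within plates the counts towards the microglia class were 34 of 121 measured genes on plate A and 41 of 124 on plate B, with medians of 0.33 and 0.60 against 1.73 and 1.87 over all genes there. Those within-plate medians of all genes carry the limit given above.

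Of 8 small heat shock protein genes measured, 4 were above 0 and 4 below, with a median of 0.07. Past 4-fold were 1 (12.5%) towards the microglia class and 2 (25%) towards endothelial cells, against 19.9% and 11.7% of all genes. Hspb8, a small heat shock protein that delivers clients for autophagy, had 0.547 CPM in the microglia class and 109 CPM in endothelial cells, 198-fold (135 to 304) higher in endothelial cells. Bag3, the co-chaperone that joins Hspb8 to HSP70, had 61.6 CPM in microglia-class and 349 CPM in endothelial cells, 5.66-fold (5.42 to 5.91) higher in endothelial cells. Bag2, an exchange factor that also inhibits the ubiquitin ligase Stub1, had 0.189 CPM from 9 reads in microglia-class cells and 27.1 CPM in endothelial cells. These 3 genes and Hspb1 were higher in endothelial cells on plates A and B too. Cell shares were modest for the first and last, with reads of Hspb8 in 7.50% of microglia-class and 27.9% of endothelial cells, and of Bag2 in 3.21% of microglia-class and 19.8% of endothelial cells. Hspb3 went the other way, with 8.71 CPM in the microglia class, from 3.21% of its cells, and 0 endothelial reads.

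In the list of cytosolic HSP70 and HSP110 genes, 8 of 11 were above 0 on the log2 scale, where most genes lay, and 3 below. In each direction 1 passed 4-fold, against 19.9% and 11.7% of all genes. Hspa12b, a distant HSP70 relative known from endothelium, had 3.62 CPM in the microglia class and 255 CPM in endothelial cells, 70.5-fold (60.6 to 82.6) higher in endothelial cells. Hspa4l, an HSP110, had 37.2 CPM in microglia-class and 1.31 CPM in endothelial cells, with reads in 12.1% of microglia-class and 15.3% of endothelial cells. Among 15 J proteins, Dnajb14, which sits in the membrane of the endoplasmic reticulum, had 141 CPM in the microglia class and 4.49 CPM in endothelial cells, and Dnajb5 had 17.1 CPM in microglia-class and 1.83 CPM in endothelial cells. Dnajb14 had a log2 ratio of 1.10 on plate A, where the endothelial cells had 79.0 CPM, and of 6.41 on plate B. Dnaja2, a J protein of the cytosol, had 157 CPM in microglia-class and 235 CPM in endothelial cells.

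Over all plates, none of 14 HSP90 and co-chaperone genes passed 4-fold in either direction, against 19.9% of all genes towards the microglia class and 11.7% towards endothelial cells. Within plates, 5 of them passed it towards the microglia class and 1 towards endothelial cells on plate A, and 4 and 0 on plate B, where 46.5% (plate A) and 48.4% (plate B) of all genes passed towards the microglia class. The list's median was -0.52 over all plates, but 0.59 on plate A and 1.19 on plate B. Cdc37, which brings kinases to HSP90, had 154 CPM in the microglia class and 245 CPM in endothelial cells, and Fkbp5, a glucocorticoid-induced co-chaperone, had 18.6 CPM in microglia-class and 49.7 CPM in endothelial cells. Both were higher in the microglia class within plates, with log2 ratios of 0.87 and 1.29 for Cdc37 and of 4.73 and 3.42 for Fkbp5 on plates A and B. None of 14 genes of the TRiC chaperonin, which folds actin and tubulin, and of its partner prefoldin passed it over all plates, with a median of -0.01, while 2 passed it towards the microglia class on each of plates A and B. Cct7 had 225 CPM in microglia-class and 366 CPM in endothelial cells, and Cct4 had 263 CPM in microglia-class and 170 CPM in endothelial cells. Of 11 exchange factors and HSP70 co-chaperones, 3 were above 0 and 8 below. Towards the microglia class 0 passed 4-fold, and 2 (18.2%), Bag2 and Bag3, passed it towards endothelial cells, where 11.7% of all genes did. Of 4 heat shock factor genes measured, 0 passed in either direction. Hsf1, the factor that drives the heat shock response, had 82.0 CPM in microglia-class and 63.6 CPM in endothelial cells, a ratio of 1.29 (1.21 to 1.37). It had 47.0 CPM in microglia-class cells and 1.04 CPM in the 7 endothelial cells of plate A, and 101 CPM in microglia-class cells and 8.96 CPM in the 10 endothelial cells of plate B.

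Of 12 mitochondrial chaperones, 2 (16.7%) passed 4-fold towards the microglia class and 0 towards endothelial cells, against 19.9% and 11.7% of all genes. Hspe1, the lid of the mitochondrial chaperonin, had 185 CPM in the microglia class and 28.2 CPM in endothelial cells, and Htra2, a protease of the intermembrane space, had 91.1 CPM in microglia-class and 14.1 CPM in endothelial cells. For Hspe1 the pair of classes nearly met on plate A, with a log2 ratio of 0.12. Hspa9, the mitochondrial HSP70, had 143 CPM in microglia-class and 179 CPM in endothelial cells.

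Of 19 endoplasmic reticulum chaperone genes measured, 15 were above 0, where most genes lay. Past 4-fold were 1 (5.26%) towards the microglia class and 0 towards endothelial cells, against 19.9% and 11.7% of all genes. The median log2 ratio was 0.49, against 1.60 for Hspa5 itself and 0.36 over all genes. On plate B the median was 0.38, against 0.50 for Hspa5. The gene past 4-fold, Sdf2l1, a partner of BiP, had 154 CPM in the microglia class and 13.0 CPM in endothelial cells. Pdia3, which forms disulfide bonds in glycoproteins, had 744 CPM in microglia-class and 602 CPM in endothelial cells, and P4hb, another disulfide isomerase, had 516 CPM in microglia-class and 829 CPM in endothelial cells. The ER stress element was found in 7 of the 16 genes of this list with a promoter, Hspa5, Hsp90b1, Calr, Canx, Pdia6, Dnajc3 and Creld2. Of all 27025 genes with a promoter, 37 held it.

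Among 14 regulators of the unfolded protein response, 3 (21.4%) passed 4-fold towards the microglia class and 1 (7.14%) towards endothelial cells. These shares stand against 19.9% and 11.7% of all genes. The list's median was 0.81, against 0.36 over all genes. Ppp1r15a, which restores translation after stress, had 1274 CPM in the microglia class and 258 CPM in endothelial cells, 4.94-fold (4.81 to 5.08) higher in the microglia class. Ern1, the sensor IRE1, had 24.9 CPM from reads in 8.93% of microglia-class cells and 1.03 CPM from reads in 1.80% of endothelial cells, and Ddit3, a stress-induced transcription factor, had 54.8 CPM in microglia-class and 10.8 CPM in endothelial cells. Trib3, a target of Ddit3, had 12.9 CPM in microglia-class and 62.9 CPM in endothelial cells; its reads came from 2.86% of microglia-class and 12.6% of endothelial cells. Atf4 and Herpud1, the most abundant after Ppp1r15a, had ratios of 1.21 and 1.48. Within plate A, Ppp1r15a, Ddit3 and Trib3 stayed under 4-fold, with log2 ratios of 1.33, 0.69 and -0.94.

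Of 24 known targets of the heat shock response, a list that holds 8 of the 9 members, 3 (12.5%) passed 4-fold in each direction. Of all genes, 19.9% did so towards the microglia class and 11.7% towards endothelial cells. The list's median was 0.32, against 0.36 over all genes. Hspa4l, Hspe1 and Hmox1 were higher in the microglia class, and Hspb1, Hspb8 and Bag3 in endothelial cells. Hmox1, a heme-degrading enzyme that answers oxidative stress, had 398 CPM in the microglia class and 16.1 CPM in endothelial cells, 24.8-fold (22.3 to 27.7) higher in the microglia class. On plate A, Hmox1 and Bag3 stayed under 4-fold, with log2 ratios of 1.61 and -1.81. An element of 2 units was found in 12 of the 18 targets with a promoter, among them Hspb1, Hspb8, Bag3, Hspe1, Hspa1a and Hspa1b. Of all 27025 genes with a promoter, 4587 held such an element. Hsp90ab1 and Hspa1a were the most abundant of the list.

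**Figure D3:**
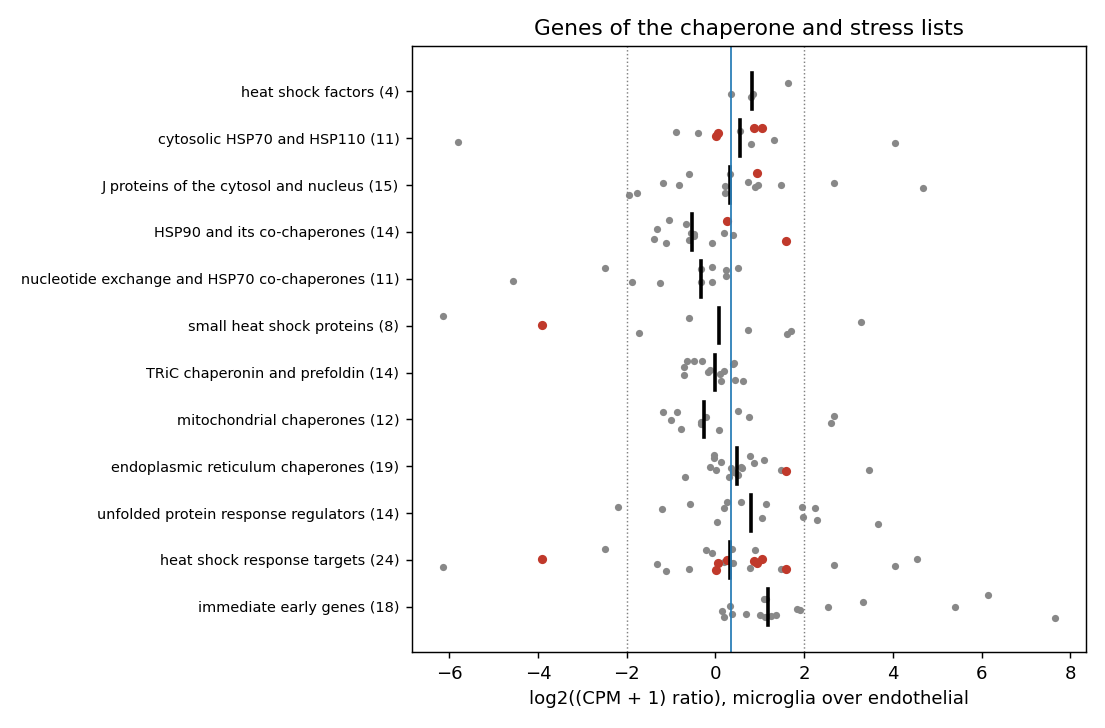
Log2 ratio of pooled CPM plus 1, microglia over endothelial, for each measured gene of the 12 lists; red points are the 9 genes, black bars list medians, the blue line the median of all genes, 0.36, and dotted lines 4-fold. Most chaperones lie between the dotted lines, and the immediate early genes lie to the right of 0.

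Immediate early genes, which cells switch on within minutes of a stimulus and which dissociation is known to induce, were measured beside the chaperones. All 18 were above 0 on the log2 scale, where most genes lay. Of the 18, 5 passed 4-fold towards the microglia class, against 19.9% of all genes. Their median was 1.19, against 0.36 over all genes. Within plates their medians were lower than those of all genes, 1.14 against 1.73 on plate A and 1.22 against 1.87 on plate B. On each, 17 of 18 were above 0, and 5 on plate A and 6 on plate B passed 4-fold, against 46.5% and 48.4% of all genes. Those values of all genes take in genes not read in the few endothelial cells there, so they are no matched background for abundant genes. Fos, a transcription factor subunit, had 4343 CPM in the microglia class and 2010 CPM in endothelial cells, and its partner Jun had 3213 CPM in microglia-class and 2575 CPM in endothelial cells. Atf3 had 1416 CPM in microglia-class and 32.7 CPM in endothelial cells, 43.3-fold (40.2 to 46.7) higher in the microglia class. Across cells, the summed immediate early genes had a rank correlation of 0.37 with Hspa1a over 280 microglia-class cells and of 0.51 over 111 endothelial cells. In the microglia class it was 0.03 with Hspb1, 0.33 with Hsp90aa1 and 0.28 with Hspa5, and in the endothelial class 0.46 with Hspb1, 0.11 with Hsp90aa1 and 0.05 with Hspa5. The part of dissociation in these levels was not tested.

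The chaperones varied together loosely, and differently in the 2 classes. Over the 36 pairs of the 9 genes the median rank correlation was 0.17 across microglia-class cells and 0.09 across endothelial cells. These are descriptions over cells that share plate and depth, with no test. Values of 0.3 or more were found for 8 pairs in the microglia class and 3 in the endothelial class. In the microglia class they joined Hspa1a, Hspa1b, Hspa8, Dnajb1, Hsp90aa1 and Hsp90ab1, led by Hspa1a with Hspa1b at 0.50 and Dnajb1 with Hsp90aa1 at 0.38. In endothelial cells they joined Hspa1a, Hspa1b and Hspb1 only, led by Hspa1a with Hspb1 at 0.57. Correlations of the pair Hspa1a and Hspa1b can come from shared reads, which was not tested.

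**Figure D4:**
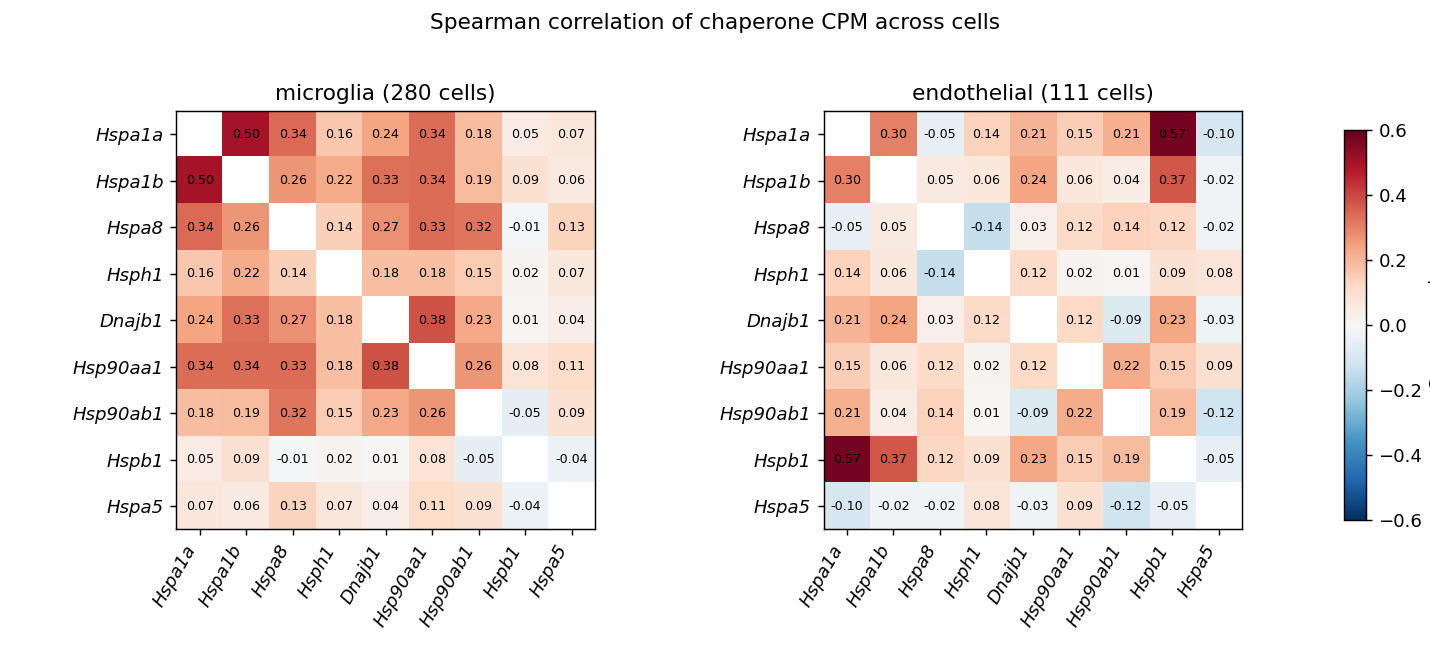
Rank correlation (Spearman) of CPM for each pair of the 9 genes across 280 microglia-class cells, left, and 111 endothelial cells, right. On the left, in the microglia class, the strongest red lies among Hspa1a, Hspa1b, Hspa8, Dnajb1, Hsp90aa1 and Hsp90ab1. On the right, in endothelial cells, the strongest red is Hspa1a with Hspb1, 0.57.

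Hspa1a and Hspb1 correlated at 0.47 on plate C and 0.69 on plate D, and at 0.43 over all endothelial cells by Pearson's coefficient on log2(CPM + 1). Across microglia-class cells, in which most cells had no Hspb1 read, the value was 0.05. Hspa5 had low values with the other 8 genes over all plates, from -0.04 to 0.13 in the microglia class and from -0.12 to 0.09 in endothelial cells. With Hspa1a it was at -0.06 on plate A and 0.21 on plate B across microglia-class cells. Depth moved with some of the genes about as much as most of them moved with each other. The rank correlation with a cell's gene reads was -0.16 for Hspa1a and 0.21 for Hsp90ab1 in the microglia class, the lowest and highest of the 9 there. Within plates it ran to -0.24 for Hspa1a and 0.26 for Hsp90aa1 in the microglia class on plate B, and to -0.25 for Hspb1 on plate C and 0.34 for Hspa1b on plate D in endothelial cells. Its part in the correlations between genes was not tested.

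The genes most like the summed Hspa1a and Hspa1b across cells, among 1142 genes read in at least 50% of microglia-class cells, included Dusp1 (0.36), Fos (0.34), Hsp90aa1 (0.34) and Hspa8 (0.34). Among 1269 such genes in endothelial cells they included Jun (0.63), Hspb1 (0.58), Junb (0.41) and Ier2 (0.35). Jun was at 0.66 on plate C and 0.61 on plate D. For Hspa5 the first genes were Fos, Dusp1, Fosb, Zfp36 and Klf4 in the microglia class, at 0.23 to 0.21, and Myh9, Slfn5, B3gnt3, Marcks and Canx in endothelial cells, at 0.35 to 0.28. For Hsp90aa1 they were Dnajb1 (0.38), Pnrc1, Hspa1b, Hspa1a and Ier5 (0.33) in the microglia class, and Atp1b3 (0.33), Gng11, Atp6v1e1, Dnaja1 and Rbck1 (0.30) in endothelial cells. The highest values, over 0.5, belong to the endothelial pairs of the HSP70 genes with Jun and with Hspb1.

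The microglia class is not uniform, and the chaperones were followed over 4 clusters of its cells, made without any chaperone or immediate early gene and called here by number. Cluster 1 held 110 cells led by Vim, Ccr2 and Lgals3, cluster 2 held 96 led by Egfl7, Kif3a and Ccl24, cluster 3 held 51 led by Slc2a5, Il1a and Sall1, and cluster 4 held 23 led by Cldn11 and Fam43a, 22 of them from plate B. The core microglia markers summed to 24604, 33514, 49613 and 30127 pooled CPM in clusters 1 to 4. The 5 genes of class II antigen presentation summed to 20161, 3398, 1052 and 7676 CPM. The 9 markers of border-associated macrophages summed to 6109, 15538, 729 and 12944 CPM, and the 5 of parenchymal microglia to 512, 657, 9195 and 929 CPM. Cells of the class outside cluster 3 thus carried high levels of border-associated macrophage markers.

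Hspa1a was lowest in cluster 3. Its pooled level was 1167, 1232, 645.4 and 1572 CPM in clusters 1 to 4, with medians per cell of 1259, 1097, 263 and 1651 CPM. Cluster 3 was also below clusters 1 and 2 within each plate, at 580 CPM against 1329 and 1212 CPM on plate A and at 684 CPM against 1113 and 1267 CPM on plate B. Hspa1b followed with 56.0, 41.5, 21.4 and 51.4 CPM. By pooled level Hspa8 and Dnajb1 were lowest in cluster 3 too, by smaller steps. Hspa8 had 502, 432, 404 and 472 CPM and Dnajb1 908, 712, 671 and 702 CPM in clusters 1 to 4. On plate A, however, Dnajb1 had 686 CPM in cluster 3 and 663 CPM in cluster 2. The medians per cell of Dnajb1 were 462, 15.8, 350 and 26.4 CPM in clusters 1 to 4, lowest in cluster 2. Those of Hspa8 were 486, 320, 269 and 385 CPM, but on plate A 435 CPM in cluster 3 and 319 CPM in cluster 2. The pooled levels of Hsp90aa1 and Hspa5 were lowest in cluster 1, with 275 and 1292 CPM, and that of Hsp90ab1 in cluster 2, with 1454 CPM. By median per cell Hspa5 was again lowest in cluster 1, at 930 CPM. Hsp90aa1 and Hsp90ab1 were by that measure lowest in cluster 3, at 175 and 1079 CPM.

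Hspb1 was low in every cluster, from 22.9 to 52.3 CPM, against 451 CPM in endothelial cells, and Hspa5 was above the endothelial 484 CPM in every cluster. Hsph1 had 122 and 120 pooled CPM in clusters 1 and 3, and 24.1 and 10.5 CPM in clusters 2 and 4. Its median cell had 0 CPM in every cluster. Reads of Hsph1 were found in 31.8%, 20.8%, 29.4% and 26.1% of the cells of clusters 1 to 4. With cluster 3 alone set against the endothelial cells, Hspa1a had a log2 ratio of -0.72, against 0.06 for the whole class. The clusters hold cells of the same 2 plates and no animals are known, so these differences have no test.

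**Figure D5:**
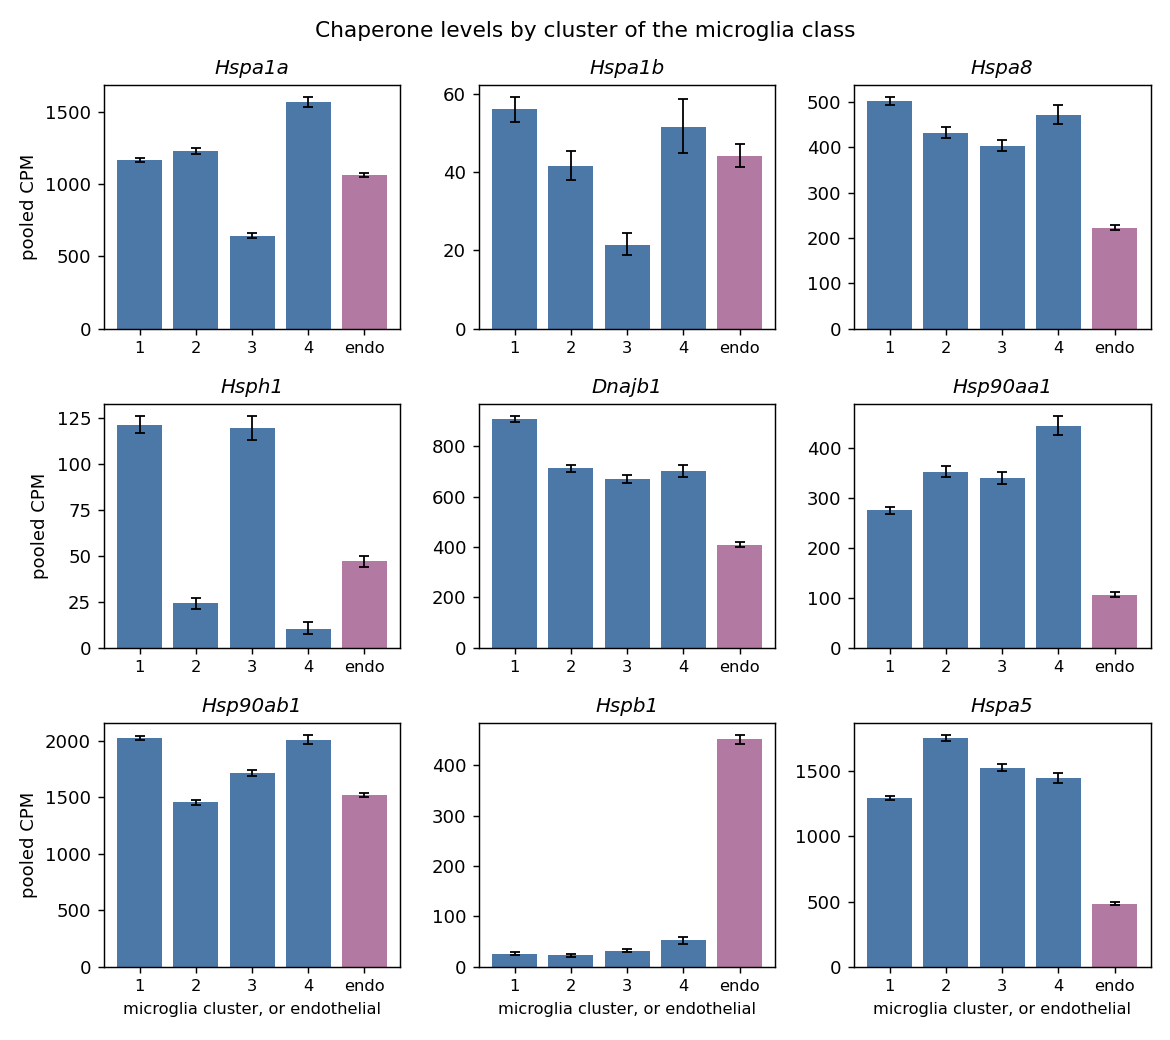
Pooled CPM of the 9 genes in the 4 clusters of the microglia class (110, 96, 51 and 23 cells) and in 111 endothelial cells; bars start at 0 and error bars are exact 95% Poisson intervals. Hspa1a and Hspa1b are lowest in cluster 3, and Hspb1 is lower in each cluster than in endothelial cells.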

How the data were processed

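Smart-seq2 reads of 391 single cells were used as the raw read counts per gene and cell deposited by the authors. The submitters' processing notes name build GRCm39, Subread 1.4.6-p5, featureCounts and SAMtools 1.16.1. Aligner, annotation, strand setting and handling of multiply mapped reads: not given in the sources used here. The class of each column came from the deposited cell table, whose class codes occur 280 and 111 times, the numbers of the labels; plates were read from the column names. No cell was left out, no doublet caller was run, and all columns were used.

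Reads were summed per class and divided by its gene reads (CPM). Intervals at 95% are exact Poisson, conditional binomial (ratios) or Clopper-Pearson (shares); reads carry no molecular identifiers, so intervals cover counting error only, not variation between cells or animals. A pseudocount of 1 CPM was added before log2, so ratios of low genes are understated. Lengths and 50-base pieces came from GENCODE M21 transcripts, which may differ from the annotation that was counted. For clusters, 2000 variable genes, 20 components, 15 neighbours and Leiden resolution 0.5 were used. The pooled ratio, its interval and the 4-fold threshold were tested on simulated Poisson counts per class, without variation between cells. Clusters, correlations and thinning were not tested in this way. Alternatives were plates, scaling (edgeR 4.0.16 TMM, DESeq2 1.42.0 size factors), pseudocounts, thinning and clusters. Python 3.11.15, scanpy 1.11.5 and R 4.3.3 were used.

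The members and the gene lists were chosen with earlier results of these data known. Named were the members, per list the 3 most abundant genes and the extreme ratios, the 5 genes most correlated with the summed HSP70 pair, Hspa5 and Hsp90aa1, and the leading genes of clusters; of these, some are not reported here. List genes past 4-fold that fall outside this rule (Dnajb5, Htra2, Ddit3 and Atf3) were named after their values were seen.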

Additional observations from a re-analysis of the deposited data

Results flagged for a closer look

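Over the 4 plates of endothelial cells, 3 of the 9 genes had a plate that stood apart by Dixon's criterion, which chance meets in about 1 of 20 groups of values. Hspa8 was lowest on plate B, at 110 pooled CPM, against 233 to 255 CPM on the other plates, and 4 of the 10 cells of plate B had no read. Dnajb1 was highest on plate A, at 1060 CPM, against 359 to 390 CPM on the others. Hspa5 was highest on plate B, at 987 CPM, against 401 to 470 CPM on the others. Plates A and B held 7 and 10 endothelial cells, and a single cell held 35.9% of the summed Dnajb1 CPM of plate A and 37.6% of the summed Hspa5 CPM of plate B.

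Dnajb1 pointed in opposite directions on the plates that held both classes, with a microglia over endothelial ratio of 0.694 on plate A and 2.29 on plate B. The difference between the plates was not tested, and animals cannot be told apart from plates here.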

How the results depend on the processing

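No paired analysis was possible because no replicate number or animal is given and no result comes from a test. The count of members 4-fold or more higher in the microglia class, 0 over all cells, was 1 on plate A, 2 on plate B, 1 with cluster 4 alone as the microglia class, and 3 at a 2-fold threshold. The count higher in endothelial cells, 1, was 2 with cluster 4 alone, where Hsph1 joined Hspb1. Both counts were unchanged under the other alternatives run, which left out each plate in turn, averaged cells equally, changed the scaling, pseudocount or low filter, or left out cells under 71000 reads.

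Over 18 alternatives per gene, the log2 ratio kept its sign for Hspa5 (0.50 to 1.90), Hsp90aa1 (0.91 to 2.23), Hspa8 (0.86 to 2.00) and Hspb1 (-4.37 to -3.09). It changed sign for Dnajb1 on plate A (-0.53), for Hsp90ab1 in cluster 2 (-0.06), for Hsph1 in clusters 2 and 4 (-0.94 and -2.07), and for Hspa1a under TMM, median-of-ratios and in cluster 3 (-0.02, -0.07 and -0.72). Hspa1b changed sign in 7 of 18. The cause was not tested. The median of all genes, 0.36, was 0.23 with median-of-ratios scaling, 0.17 with a pseudocount of 10, 0.12 at 10 CPM or more, 0.06 with all genes with a read, 0.10, -0.08 and -0.53 with clusters 2, 3 and 4 alone, and 1.73 and 1.87 on plates A and B, where 7 and 10 endothelial cells were read. Leaving out cells with over 1% of reads on the other class's markers removed 0 cells, so this alternative among the 18 repeats the main values.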

Other observations

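For Hspb1 itself, added to the comparison outside the rule for named genes, the most similar genes across endothelial cells were Hspa1a (0.57), Jun (0.43), Fos (0.38), Hspa1b (0.37) and Ahnak (0.34). In the microglia class no gene passed 0.21, the value of Cyth4, and most cells had no Hspb1 read. In the members' promoters, TATAA was found for Hspa5, 26 to 22 bases before its start, and in 24.9% of all promoters; CCAAT was found for Hspa1a, Hspa1b, Hsph1, Dnajb1 and Hspa5 and in 37.4% of all promoters.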
